A study of Mus musculus with 11 samples.

Results

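Immediate early genes are switched on within minutes of synaptic activity, without new protein synthesis, and their transcripts are widely read as a record of recent neuronal firing. The 10 genes described here are Fos, Fosb, Jun, Junb, Egr1, Egr2, Egr3, Egr4, Arc and Nr4a1. They were taken as the probe sets with a single annotated symbol among those names, 1 probe set for each gene, out of 19938 genes with a single symbol on the array. All 10 were on the array and 9 lay above the filter on dim genes, which kept the 11963 genes whose mean over all arrays exceeded the 40th percentile (log2 6.99). Fos, at the 38.0th percentile, lay just below it and Egr2, at the 41.4th, just above it.

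The Fos and Jun proteins pair through leucine zippers to form AP-1 transcription factors, the Egr proteins bind GC-rich sites through zinc fingers, and Nr4a1 (Nur77) is an orphan nuclear receptor that can pair with retinoid X receptors. Arc is not a transcription factor but a cytoplasmic protein that promotes removal of AMPA receptors from synapses. In striatal projection neurons calcium and cyclic AMP drive these genes through the factors CREB, SRF and Elk1, and dopamine and psychostimulants are classical inducers.

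Rarb-null mice lack retinoic acid receptor beta. RNA came from the nucleus accumbens, enriched in its shell, of 5 Rarb-null and 6 wild-type (WT) male littermates on a mixed C57BL/6J and 129SvEms/j background, aged 4 to 5 months, with 11 Affymetrix Mouse Gene 1.0 ST arrays in all, as many as the mice the protocol counts. The mice were behaviourally naive and were killed by cervical dislocation, and the labels give no stimulus. Group sizes follow the sample titles and the design text, whereas the extraction protocol gives them the other way round. The mutation is carried in every tissue as far as the labels say, since no Cre or promoter is named. Values are log2 expression after robust multi-array analysis (RMA), and a difference subtracts the WT mean from the Rarb-null mean.

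Proximal promoters are printed for 3 genes whose levels covaried between arrays (Fos, Junb and Egr4) and for Jun, which passed no test of covariation. Each line holds the 250 bases before the annotated start, 5′ to 3′ on the gene's strand, from RefSeq (GRCm38.p6): Fos at chr12:85473640-85473889 (plus strand), Junb at chr8:84978749-84978998, Egr4 at chr6:85513590-85513839 and Jun at chr4:95052223-95052472 (all 3 on the minus strand). Capitals mark TGACG, the core of the cyclic AMP response element, on either strand, TATAAA on the gene's strand, and TGACATCA, the AP-1-like site known from the Jun promoter.
Fos: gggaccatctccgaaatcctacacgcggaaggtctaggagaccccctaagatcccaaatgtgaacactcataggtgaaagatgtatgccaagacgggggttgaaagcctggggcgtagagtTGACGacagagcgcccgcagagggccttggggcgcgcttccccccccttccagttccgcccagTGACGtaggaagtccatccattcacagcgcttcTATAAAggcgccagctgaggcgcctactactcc
Junb: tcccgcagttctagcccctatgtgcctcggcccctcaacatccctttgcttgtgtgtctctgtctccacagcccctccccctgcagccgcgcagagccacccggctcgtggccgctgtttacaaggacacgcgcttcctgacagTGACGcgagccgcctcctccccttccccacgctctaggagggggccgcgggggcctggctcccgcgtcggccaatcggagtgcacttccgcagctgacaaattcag
Egr4: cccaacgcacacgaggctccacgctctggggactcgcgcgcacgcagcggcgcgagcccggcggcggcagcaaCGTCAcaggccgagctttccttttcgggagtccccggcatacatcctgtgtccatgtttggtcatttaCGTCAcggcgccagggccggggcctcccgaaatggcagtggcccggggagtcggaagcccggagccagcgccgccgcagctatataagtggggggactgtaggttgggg
Jun: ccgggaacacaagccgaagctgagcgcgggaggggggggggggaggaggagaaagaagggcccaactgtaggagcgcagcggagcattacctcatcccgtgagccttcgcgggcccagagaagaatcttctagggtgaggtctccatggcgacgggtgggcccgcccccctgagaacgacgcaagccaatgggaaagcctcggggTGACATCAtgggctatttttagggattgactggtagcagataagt

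The TGACG core stood in the windows of 6 of the 7 members listed in the promoter table (Fos, Fosb, Junb, Egr2, Egr4 and Nr4a1), against 17.8% of 32851 windows of this length. Egr2 had 5 windows, and 1 match in any of them was counted. Fos held it at 129 to 125 and at 66 to 62 bases before the start, with the TATAAA at 33 to 28. Junb held 1 copy, at 106 to 102, and Egr4 held copies at 177 to 173 and at 109 to 105. Nr4a1, which like Jun had 0 passing pairs in the test of covariation, held copies at 233 to 229, 213 to 209, 69 to 65 and 40 to 36. The choice of printed windows therefore does not show that the core goes with covariation. Jun held no TGACG but had TGACATCA at 45 to 38, a site found in 2.93% of windows. The complete element TGACGTCA (1.55% of windows) and the AP-1 site TGANTCA (6.75%) were in none of the 7. The CArG box, the SRF site, was in Egr2 (1.47% of windows) and the EGR site GCGGGGGCG in Fosb and Nr4a1 (2.57%). All motifs but TATAAA were searched on both strands, TGACGTCA contains TGACG, and a match is a description of these letters only.

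Rarb, the deleted gene, averaged 9.89 ± 0.11 in Rarb-null and 11.75 ± 0.04 in WT arrays (SD, n = 5 and 6), and every array labelled null lay below every WT array. Its level in null arrays was still above the filter of log2 6.99, and what the probe set reads there was not examined. The tissue label fits its markers, since all 14 tested projection neuron markers were at or above the 88.7th percentile of genes. They averaged 11.55 ± 0.07 in Rarb-null and 11.83 ± 0.03 in WT arrays, with 11 of 14 called lower and 0 higher in the limma fit (13 lower and 0 higher at an unadjusted p under 0.05). Markers of cortical neurons, which strongly express immediate early genes, averaged 9.37 ± 0.21 in Rarb-null arrays (9.22 to 9.73) and 8.93 ± 0.25 in WT arrays (8.68 to 9.28), with 5 of 12 tested called higher and 0 lower in the limma fit (10 and 0 at an unadjusted p under 0.05). Oligodendrocyte markers averaged 9.29 ± 0.09 in Rarb-null and 9.45 ± 0.10 in WT arrays, with 5 of 11 called lower and 0 higher in the limma fit (7 and 0 unadjusted). Astrocyte markers averaged 10.16 ± 0.03 in Rarb-null and 10.24 ± 0.03 in WT arrays, with 3 of 9 called lower and 1 higher. Of all tested genes, 12% were called lower and 7.56% higher. At an unadjusted p under 0.05 in the limma fit, 4220 of the 11963 tested genes differed in either direction. Every tested member and every called listed gene was also fitted with the cortical or the oligodendrocyte marker level as a term, and the fits that ended a call are given with the gene. Fos, below the filter, was not fitted in this way. Both marker levels differed between genotypes, so such a term can widen the SE, and a lost call alone does not show a smaller difference. A term for astrocyte or projection neuron markers was not tested. In tissue RNA, fewer cells of a type and less RNA per cell cannot be told apart.

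In the main fit, loss of Rarb was accompanied by small changes of opposite sign within the immediate early genes rather than a shared shift. Egr3 and Fosb rose, by 0.22 and 0.18 on the log2 scale (1.17-fold and 1.13-fold), while Jun and Egr1 fell by 0.29 and 0.15 (1.22-fold and 1.11-fold). The other 5 tested members did not pass the limma fit (Benjamini-Hochberg adjusted p of 0.05 over all genes tested). Thus 2 of 9 tested members were higher, where 7.56% of all tested genes were, and 2 of 9 were lower, where 12% were. In either direction that is 4 of 9 against a background of 19.6%. For none of the 9 were the arrays of the 2 genotypes fully apart, which was the case for 11.2% of tested genes. The median difference of the 9 was 0.01, and that of all tested genes was -0.02. The calls depended on the fit, those of the falling members most. With arrays centred on their median tested gene 0 members were called lower, and with the oligodendrocyte marker term 0 were called in either direction. Jun kept its call in 9 of 23 alternative settings and Egr1 in 15 of 23.

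**Figure D1:**
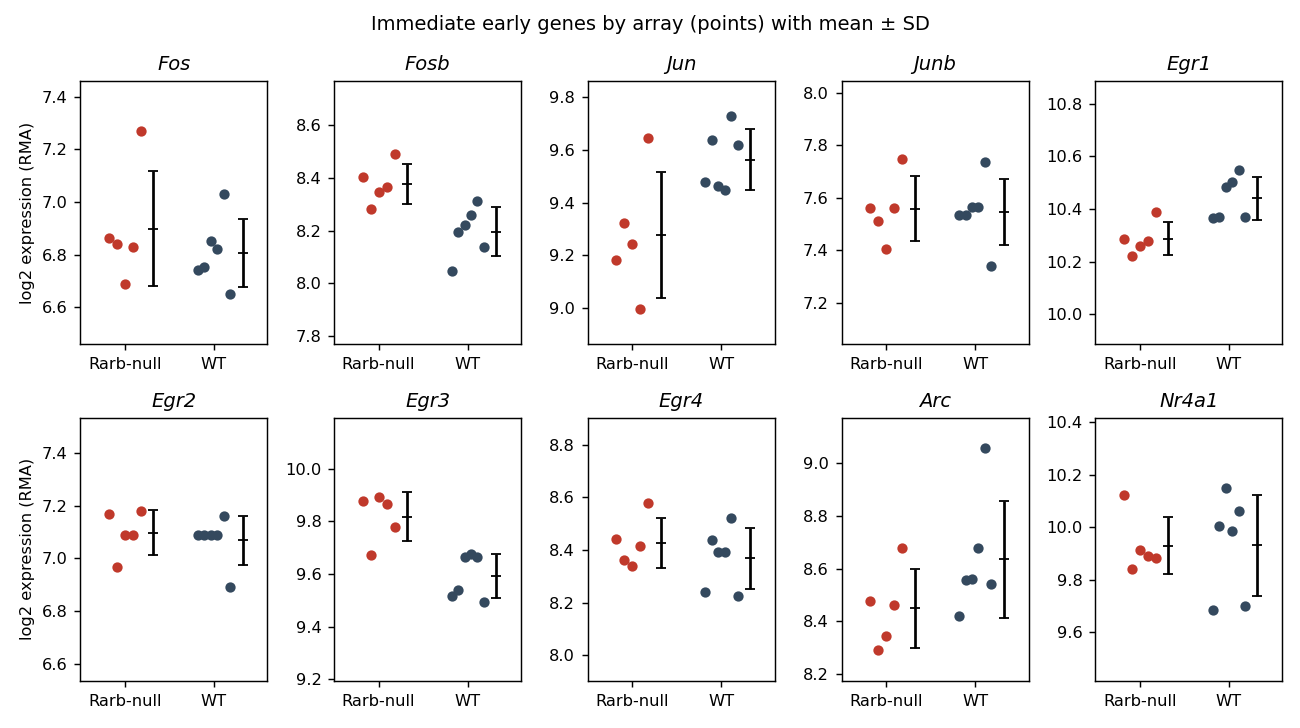
Log2 expression (RMA, vertical axis) of each of the 10 genes in 5 Rarb-null (red) and 6 WT arrays (dark), 1 point per array, with the mean ± SD as a bar beside the points. Each panel spans 1 log2 unit, and the ranges of the genotypes overlap in every panel.

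Among the Fos family, Fosb encodes an AP-1 subunit whose truncated form accumulates in the accumbens with repeated stimulation. It measured 8.40, 8.28, 8.35, 8.37 and 8.49 in the Rarb-null arrays, while WT arrays ran from 8.05 through a median of 8.21 to 8.31. Only the lowest Rarb-null array lay inside the WT range. The difference was 0.18 (SE 0.049, limma adjusted p = 0.0213; exact permutation p = 0.00866, two-sided). The call was lost without Rarb-null replicate 5 (0.15, adjusted p = 0.0507), with the level of the cortical markers in the fit (0.11, adjusted p = 0.346) and with that of the oligodendrocyte markers (0.13, adjusted p = 0.28). Whether the probe set separates the full-length and truncated transcripts was not examined.

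Fos itself, the most used activity marker of the family, was dim. It measured 6.86, 6.84, 6.69, 6.83 and 7.27 in Rarb-null arrays and 6.65 to 7.03 in WT arrays, with a median of 6.79. Rarb-null replicate 5 alone stood above the WT range, and the other 4 null arrays were inside it. In the fit without the filter the difference was 0.09 (SE 0.090, 95% interval -0.10 to 0.28, adjusted p = 0.507).

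Jun, the partner of Fos in AP-1, was at 9.18, 9.32, 9.24, 8.99 and 9.64 in Rarb-null arrays, against 9.45 to 9.73 (median 9.55) in WT arrays. All null arrays but 1 lay below all WT arrays and that one, replicate 5, lay above the WT median. The difference of -0.29 (SE 0.093) had a limma adjusted p of 0.0473 and an exact permutation p of 0.0303. The call was lost when any array but WT replicate 3 or Rarb-null replicate 5 was left out (-0.31 to -0.21, adjusted p 0.0569 to 0.101) and under each rescaling of the arrays. The marker terms moved it in opposite directions, to -0.55 (adjusted p = 0.0018) with the cortical markers and to -0.15 (adjusted p = 0.492) with the oligodendrocyte markers. Without Rarb-null replicate 5 the difference was -0.38 (limma adjusted p = 0.0035).

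Junb, an AP-1 subunit that can restrain Jun, did not differ detectably, with 7.56, 7.51, 7.41, 7.56 and 7.75 in Rarb-null arrays and 7.34 to 7.74 (median 7.55) in WT arrays. The difference was 0.01 (SE 0.067, 95% interval -0.13 to 0.16, adjusted p = 0.916). Both genotypes held 1 array near 7.75, replicate 5 in each.

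Within the Egr family, Egr3, a factor needed for muscle spindle development in mice and involved in hippocampal plasticity, gave the smallest p of the members. Its values were 9.88, 9.67, 9.89, 9.87 and 9.78 in Rarb-null arrays, and they ran from 9.49 to 9.68 (median 9.60) in WT arrays. All null arrays but replicate 2 lay above the WT range. The difference was 0.22 (SE 0.050, limma adjusted p = 0.00784; exact permutation p = 0.00433). It stayed past the threshold with the cortical marker covariate (0.26, adjusted p = 0.0453) and whichever array was left out, but not with the oligodendrocyte covariate (0.15, adjusted p = 0.192). Egr3 lies on chromosome 14, as Rarb does, with 588 of the chromosome's 851 protein-coding genes between them in RefSeq.

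Egr1 (Zif268), the brightest member at the 89.3th percentile, went the other way. It measured 10.29, 10.22, 10.26, 10.28 and 10.39 in Rarb-null arrays, while WT arrays ran from 10.37 to 10.55 with a median of 10.43. Only null replicate 5 reached the WT range. The difference of -0.15 (SE 0.044) had a limma adjusted p of 0.0266 and an exact permutation p of 0.0173. After centring of the arrays on their median tested gene it was -0.11 (adjusted p = 0.0525). It was -0.19 with the cortical covariate (SE 0.064, adjusted p = 0.0887) and -0.17 with the oligodendrocyte covariate (SE 0.062, adjusted p = 0.12). With either covariate the difference was no smaller, and the SE was wider. Removing a single array, namely Rarb-null replicate 2, 3 or 4, WT replicate 4 or WT replicate 5, also ended the call (-0.15 to -0.13, adjusted p 0.0519 to 0.0661).

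The remaining Egr genes showed no call. Egr4, a further zinc finger factor of the family, measured 8.44, 8.36, 8.34, 8.41 and 8.58 in Rarb-null arrays and 8.23 to 8.52 (median 8.39) in WT arrays. Its difference was 0.06 (SE 0.058, 95% interval -0.07 to 0.19, adjusted p = 0.491). Egr2 (Krox20), better known for myelination by Schwann cells, was near the filter, at 7.17, 6.97, 7.09, 7.09 and 7.18 in Rarb-null arrays against 6.89 to 7.16 (median 7.09) in WT arrays. It differed by 0.03 (SE 0.050, adjusted p = 0.702).

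Arc measured 8.48, 8.29, 8.34, 8.46 and 8.68 in Rarb-null arrays and 8.42 to 9.06 (median 8.56) in WT arrays. WT replicate 5 stood well above the other WT arrays, and all null arrays but 2 overlapped the WT range. The difference was -0.19 (SE 0.099, 95% interval -0.40 to 0.03, adjusted p = 0.195). It was -0.10 without WT replicate 5 (adjusted p = 0.323) and -0.38 with the cortical covariate (adjusted p = 0.0773). Nr4a1 gave 10.12, 9.84, 9.91, 9.89 and 9.88 in Rarb-null arrays and 9.68 to 10.15 (median 9.99) in WT arrays, with no difference beyond the spread (-0.001, SE 0.084, 95% interval -0.18 to 0.18, adjusted p = 0.995).

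**Figure D2:**
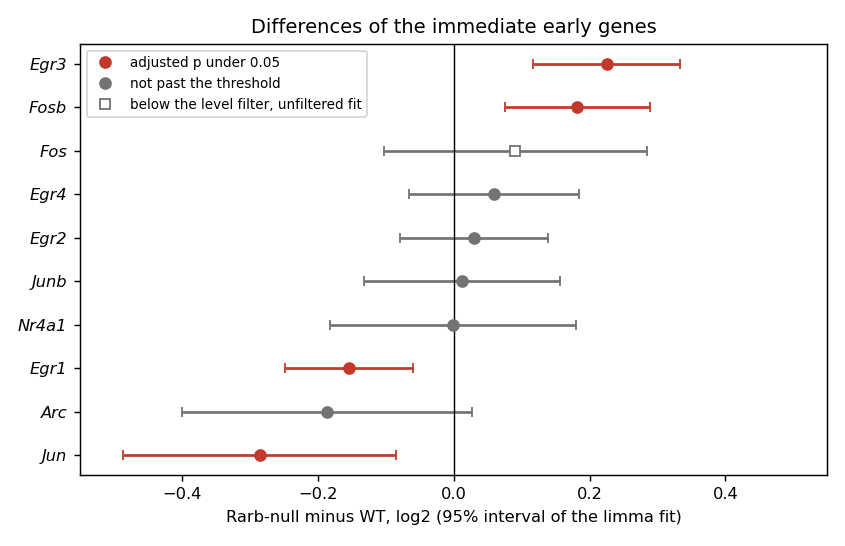
Rarb-null minus WT difference of each gene (horizontal axis, log2) with the 95% interval of the limma fit. Egr3 (0.22) and Fosb (0.18) sit right of 0 and Egr1 (-0.15) and Jun (-0.29) left of it, each with an interval that excludes 0; the open square is Fos, from the fit without the filter.

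The members did not vary alike within a genotype. The residual SD, the spread of arrays around their genotype mean, was 0.19 for Arc, 0.18 for Jun and 0.16 for Nr4a1, at the 97.6th, 97.0th and 95.6th percentile of tested genes. Egr1 had a residual SD of 0.07, at the 48.9th percentile, and Fosb, Egr3 and Egr2 stood at the 63.8th to 66.4th. The smallest differences called, those of Egr1 and Fosb, thus belong to members of middling spread, whereas the similar difference of Arc came with a spread about as wide as the difference.

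Averaged over the 9 tested members, replicate 5 was the highest array of each genotype, at 8.93 among Rarb-null and 8.98 among WT arrays. The lowest were Rarb-null replicate 2 (8.72) and WT replicates 6 (8.70) and 1 (8.71). In WT replicate 5 all 9 members were above their genotype mean, 8 in WT replicate 4 and 7 in each of Rarb-null replicates 1 and 5 and WT replicate 3, while 1 was in each of Rarb-null replicates 2 and 3 and WT replicates 1 and 6. Rarb-null replicate 5 also had the highest cortical marker level of all arrays (9.73), but WT replicate 5 (9.16) stood below WT replicate 2 (9.28). The group means of this average were 8.80 ± 0.08 in Rarb-null and 8.82 ± 0.10 in WT arrays.

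**Figure D3:**
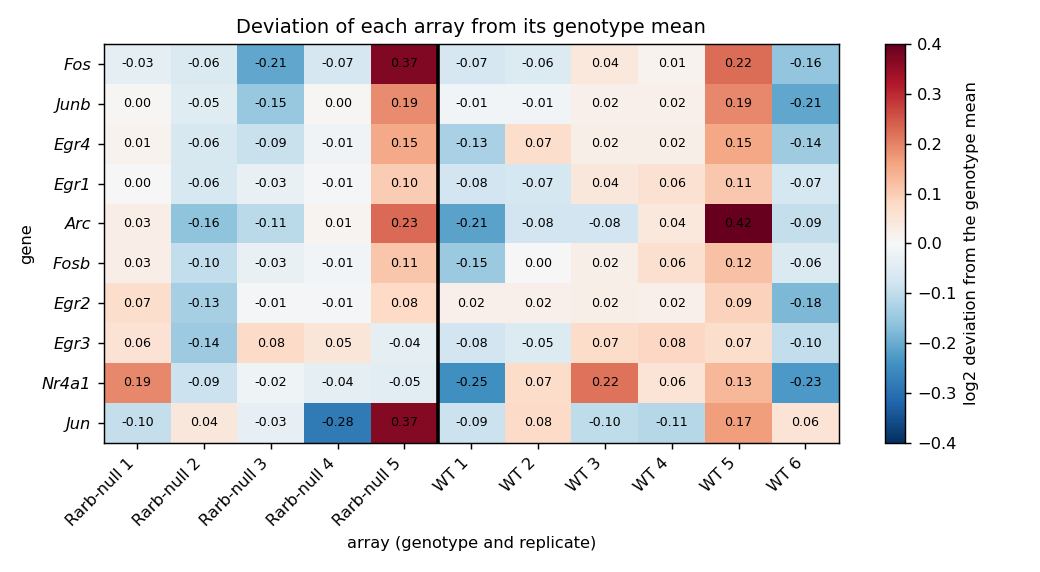
Log2 deviation of each array (columns, Rarb-null left of the line, WT right) from the mean of its genotype for each gene (rows), red above and blue below. The columns of replicate 5 in both genotypes are red for most genes, except that Egr3 and Nr4a1 lie below their mean in Rarb-null replicate 5.

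Covariation over single arrays was measured on values centred within genotype, so that genotype differences did not enter. For the 36 pairs of tested members Pearson's r had a median of 0.61, and 34 pairs were positive. Over all 71550703 pairs of tested genes the median was 0.08. An r of at least 0.7 was reached by 13 of the 36 member pairs, where 3.8% of all pairs reached it. In an exact permutation test of arrays within genotype (86400 arrangements, two-sided), 11 pairs passed after Benjamini-Hochberg adjustment over the 36, and 16 had an unadjusted p under 0.05. By Spearman's rho 14 pairs passed. The shares of all pairs of tested genes that were positive or would pass such a test were not computed.

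The pairs that passed joined Fosb, Junb, Egr1, Egr4, Arc and Egr2. Egr2 entered only through Junb and Egr4 (exact permutation adjusted p = 0.045 each). Each of these pairs lost the call in 14 alternative settings and kept it in 6. With Junb, Egr2 gave r = 0.78, and 0.54 without WT replicates 5 and 6. With Egr4 it gave 0.73, and 0.74 without WT replicate 6 and Rarb-null replicate 2. For Egr2 the same reading, 7.0894, recurs in arrays of both genotypes, so fewer arrays shape its r. Fosb and Egr1, which changed in opposite directions between genotypes, gave the highest r (0.90, exact permutation p = 0.000185, adjusted p = 0.00333, rho = 0.91 with exact p = 6.94e-05, and r = 0.89 without the 2 arrays farthest from the median of Fosb). Egr1 and Arc followed each other with r = 0.86 (exact permutation p = 2.31e-05, adjusted p = 0.000833, rho = 0.90 with exact p = 2.31e-05, and r = 0.71 without the 2 farthest arrays). Junb and Egr4 gave r = 0.88 (exact permutation p = 0.000278, adjusted p = 0.00333, rho = 0.81 with exact p = 0.00491, and r = 0.78 without the 2 farthest). With the dim Fos included, its r with Junb was 0.92 (exact permutation p = 0.000162, adjusted over 45 pairs 0.00278, rho = 0.88 with exact p = 0.000903, and r = 0.87 without the 2 farthest), and 16 of 45 pairs passed.

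Jun, Egr3 and Nr4a1 had 0 passing pairs each over the 11 arrays. In the 6 WT arrays alone, however, the pairs of Egr3 and of Nr4a1 had a median r of 0.72 and 0.70, against 0.72 for all member pairs, and those of Jun 0.16. Jun had a median r of 0.38 with the other 8 and gave the only 2 negative values, -0.36 with Egr3 and -0.07 with Nr4a1. Egr3 and Nr4a1 gave r = 0.70 with each other (exact permutation p = 0.0262, adjusted p = 0.0726, rho = 0.67 with exact p = 0.0433, and r = 0.63 without the 2 farthest arrays). A difference between these r values was not tested.

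How far the covariation rests on a few arrays was examined by leaving them out. Without replicate 5 of both genotypes, 2 of the 36 pairs passed, Fosb with Arc (r = 0.91, exact permutation adjusted p = 0.0125) and Egr1 with Arc (r = 0.73, exact permutation adjusted p = 0.025), and the median r was 0.58. In the 6 WT arrays alone the median r was 0.72, 13 pairs had an exact p under 0.05 and 0 passed adjustment. The smallest p there was 0.00278, which adjusts to 0.1, so with so few arrays the count of 0 does not show that the covariation was absent. Removing WT replicate 5 alone left 6 passing pairs, and removing Rarb-null replicate 4, WT replicate 3 or WT replicate 4 left 7 each. With the arrays centred on their median tested gene, and after repeated quantile normalisation or cyclic loess, 7 passed.

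**Figure D4:**
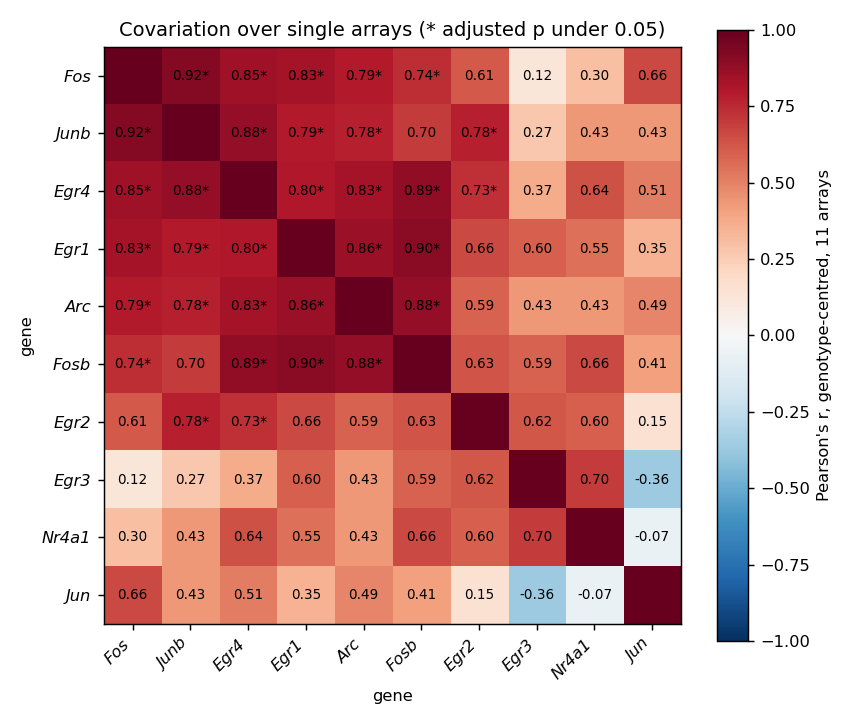
Pearson's r of genotype-centred values over 11 arrays for each pair of genes, with an asterisk where the exact permutation p adjusted over 45 pairs is under 0.05. Fos, Junb, Egr4, Egr1, Arc and Fosb form a block of r from 0.70 to 0.92, while the rows of Egr3, Nr4a1 and Jun hold no asterisk.

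Genes outside the members followed the same array pattern. The 10 with the highest r to the mean deviation of the 9 members were Srebf2 (0.97), Ndufs5 (0.95), 1500009C09Rik (0.94), Rnf157 (0.94), Fam53c (0.93), Mbd3 (0.93), Tmem177 (0.93), Tprn (0.93), Alox5ap (0.92) and 2310022A10Rik (0.92), over 11 arrays. Without replicate 5 of both genotypes their r ran from 0.83 to 0.98. None of the 10 is in the lists of activity-regulated genes used here, and Srebf2, the sterol-response factor gene, stood above every listed gene. Over all 11954 other tested genes the median r was 0.22, and 241 reached 0.8.

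Of 36 other immediate early genes tested, 34 (94.4%) had a positive r with the mean of the members, against 67.3% of all other tested genes, and their median was 0.52 against 0.22. Without replicate 5 of both genotypes 29 of the 36 (80.6%) were positive, against 63.4%, and the medians were 0.31 and 0.17. Highest were Spry2 (0.90), a feedback inhibitor of receptor tyrosine kinase signalling, the matricellular gene Ccn1 (0.89), the antiproliferative gene Btg2 (0.86), and Npas4 (0.73), a neuron-specific calcium-induced factor. Without those arrays Spry2 gave 0.88, Ccn1 0.78, Btg2 0.567 and Npas4 0.585. Genes induced later by activity had a median of 0.24 (18 tested), with the granule peptide gene Vgf highest (0.74). Upstream regulators had a median of 0.10 (23 tested), led by Srf (0.71).

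A different picture came from comparing members within an array, a measure that a shift of all probe sets on the array cannot alter. The contrast was chosen after the values were seen and was computed for all 36 pairs. Fosb minus Egr1 measured -1.88, -1.94, -1.91, -1.91 and -1.90 in Rarb-null arrays, and from -2.32 to -2.17 in WT arrays. The null values lay close together, and the genotypes were fully apart. This contrast differed by 0.34 between genotypes (exact permutation p = 0.00216, the smallest that 462 splits can give, adjusted over 36 pairs 0.0173). Fosb and Egr1 thus changed unequally between genotypes while covarying from array to array within them. Whether that covariation came from the mice or from the handling of the arrays was not tested.

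Egr3 and Egr1 separated in the same manner. Egr1 minus Egr3 averaged 0.47 ± 0.11 in Rarb-null and 0.85 ± 0.03 in WT arrays, a difference of -0.38 with no overlap (exact permutation p = 0.00216, adjusted 0.0173). Fosb minus Arc gave -0.07 ± 0.08 in Rarb-null and -0.44 ± 0.15 in WT arrays, and Egr4 minus Arc -0.02 ± 0.06 and -0.27 ± 0.15, both without overlap (exact permutation adjusted p = 0.0173 each). Fosb minus Egr3 differed by -0.04 (exact permutation p = 0.381), and Egr1 minus Arc by 0.03 (exact permutation p = 0.846).

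In all 19 of the 36 pairs passed. The 4 pairs that set a riser against a faller restate the calls above on the same arrays and add no separate evidence. Every other passing pair except Egr4 with Arc also holds a member called above, so the count of 19 is not separate evidence either. The share of all pairs of tested genes that would pass was not computed. The arrays did not overlap in 7 of 36 pairs (19.4%), where 14.1% of all pairs of tested genes did not, so full separation was not much more frequent here than among genes at large. The count of 19 became 11 when Rarb-null replicate 4 was removed, and 12 when Rarb-null replicate 2, WT replicate 2 or WT replicate 5 was.

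**Figure D5:**
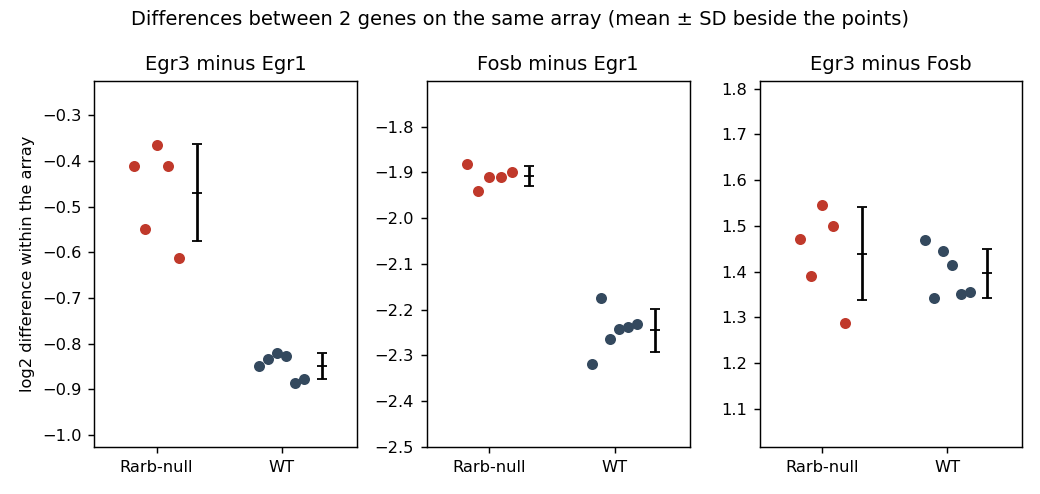
Log2 difference between 2 genes on the same array (vertical axis) in 5 Rarb-null (red) and 6 WT arrays (dark), with mean ± SD beside the points. Egr3 minus Egr1 and Fosb minus Egr1 separate the genotypes without overlap, while Egr3 minus Fosb overlaps.

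Of 36 tested genes in the list of other immediate early genes, 4 were higher, 7 lower and 25 did not pass, where 7.56% of all tested genes were higher and 12% lower. Their median difference was 0.01. Ccn2, a matricellular gene, rose by 0.82 (SE 0.151, limma adjusted p = 0.00238), the kinase gene Sgk1 by 0.32 (SE 0.041), the circadian repressor gene Bhlhe40 by 0.28 (SE 0.049) and the kinase gene Pim1 by 0.23 (SE 0.043). Spry2 fell by 0.66 (SE 0.072, limma adjusted p = 3.63e-05), the ADP-ribosyltransferase gene Tiparp by 0.42 (SE 0.053), the antioxidant gene Srxn1 by 0.33 (SE 0.040) and the polo-like kinase gene Plk2 by 0.23 (SE 0.041). Ier3 (-0.25), Rgs2 (-0.18) and Gadd45b (-0.22) were the other falls, of which Gadd45b lost its call in 14 of 23 alternatives and Rgs2, a regulator of G protein signalling, in 9. With the level of the cortical markers in the fit Ccn2 differed by 0.30 (adjusted p = 0.0662), and Plk2 (adjusted p = 0.0721) and Rgs2 (adjusted p = 0.232) lost their calls too. With that of the oligodendrocyte markers Bhlhe40 (adjusted p = 0.0506), Pim1 (adjusted p = 0.0802), Ier3 (adjusted p = 0.0757) and Gadd45b (adjusted p = 0.0994) lost theirs. Gadd45b was at -0.35 with the cortical covariate. Spry2 and the members covaried over arrays, yet Spry2 measured 8.40 ± 0.11 in Rarb-null and 9.06 ± 0.16 in WT arrays, without overlap.

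Among 18 tested genes induced later by activity, 3 rose and 5 fell, where 7.56% of all tested genes rose and 12% fell. The median difference of the list was -0.05. Nptx2, a secreted pentraxin that clusters AMPA receptors, rose by 0.45 (SE 0.042), the neuropeptide gene Npy by 0.40 (SE 0.071) and the nuclear corepressor gene Nrip1 by 0.12 (SE 0.038). The substance P precursor gene Tac1 fell by 0.39 (SE 0.037), the prohormone convertase gene Pcsk1 by 0.33 (SE 0.077), the dynorphin precursor gene Pdyn by 0.22 (SE 0.073), the vesicle protein gene Sv2c by 0.21 (SE 0.041) and the synaptic scaffold gene Homer1 by 0.17 (SE 0.041). Nptx2 and Tac1 kept their calls in all 23 alternatives, whereas Pdyn lost its call in 14 and Nrip1 in 12. With the cortical covariate Sv2c (-0.12, adjusted p = 0.15), Homer1 (-0.12, adjusted p = 0.212), Npy (0.29, adjusted p = 0.0823), Nrip1 (0.05, adjusted p = 0.547) and Pdyn (-0.21, adjusted p = 0.244) lost their calls. The oligodendrocyte covariate ended those of Sv2c (adjusted p = 0.08), Homer1 (adjusted p = 0.147), Nrip1 (adjusted p = 0.159) and Pcsk1 (-0.26, adjusted p = 0.169), while Pcsk1 was at -0.54 with the cortical covariate and Pdyn at -0.41 with the oligodendrocyte covariate. Tac1 and Pdyn are also markers of projection neurons, whose list was lower in these arrays.

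Among factors that drive the members, 2 of 23 tested upstream regulators rose and 0 fell in the limma fit (3 and 3 at an unadjusted p under 0.05). Of all tested genes 7.56% rose and 12% fell in that fit, and 4220 of 11963 had an unadjusted p under 0.05 in either direction. The unadjusted counts of this list are to be read against that larger background. The median difference of the list, with Srf, Elk1 and CREB family members in it, was -0.01. The risers were the transcription factor gene Mef2c (0.35, SE 0.062, limma adjusted p = 0.00174), also a cortical marker here (0.19, adjusted p = 0.0961, with the cortical covariate), and the CREB coactivator gene Crtc1 (0.14, SE 0.042), whose call was lost in 13 of 23 alternatives (among them 0.11, adjusted p = 0.317, with the cortical and 0.07, adjusted p = 0.467, with the oligodendrocyte covariate). Mef2c is itself in the average that formed the cortical covariate, so that fit adjusted Mef2c partly for itself. Creb1 differed by -0.12 (SE 0.043, limma adjusted p = 0.0594) and the MAP kinase target Rps6ka3 by -0.21 (SE 0.071, limma adjusted p = 0.0577). Rps6ka3 was at -0.12 with the cortical covariate and Creb1 at -0.08 with the oligodendrocyte covariate.

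Of 10 tested dimer partners and corepressors 2 fell and 0 rose in the limma fit (2 and 3 at an unadjusted p under 0.05). The shares over all tested genes were 12% and 7.56% in that fit, and 4220 of 11963 tested genes had an unadjusted p under 0.05 in either direction. Rxrg, which can pair with Nr4a1, fell by 0.90 (SE 0.050, limma adjusted p = 6.81e-08), and Nab1, a corepressor of Egr proteins, fell by 0.24 (SE 0.051, limma adjusted p = 0.00656). Nab1 was at -0.37 with the cortical covariate (adjusted p = 0.00142) and at -0.18 with the oligodendrocyte covariate (adjusted p = 0.143). The relatives of Nr4a1 were variable: Nr4a2 averaged 8.79 ± 0.46 in Rarb-null and 8.13 ± 0.43 in WT arrays (0.66, SE 0.223, limma adjusted p = 0.054), and Nr4a3 8.32 ± 0.27 and 8.07 ± 0.10 (0.25, SE 0.101, limma adjusted p = 0.0957). With the level of the cortical markers in the limma fit the difference of Nr4a2, a gene abundant in deep cortex and claustrum, was -0.14 (adjusted p = 0.452). That of Nr4a3 was 0.06 (adjusted p = 0.819). The cortical marker level itself differed between genotypes, so this fit cannot separate it from genotype, and the cause was not tested.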

How the data were processed

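RNA of the nucleus accumbens of 5 Rarb-null and 6 WT mice was measured on 11 arrays, from 0.5 mm punches of 3 sections of 300 µm and 100 ng of total RNA, per the labels' protocols. The deposited values are log2 expression after RMA, per the labels' description and the submitters' processing notes, with base 2 inferred from their range. RMA subtracts background, equalises array distributions and summarises probes, which compresses the folds of dim genes. Software version, annotation and joint normalisation are not given in the sources used here, and no scan batch is given there. Signal over background was not used here, and the number of arrays limits precision.

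Symbols came from a platform annotation table, of which 21698 were brought up to date by Entrez identifier in RefSeq (GRCm38.p6). Of 35556 probe sets 21789 had 1 symbol, 1621 several and 12146 none listed. A gene was read by its brightest probe set, and 11963 of 19938 genes, those above the 40th percentile, entered the test. The comparison used limma 3.58.1 (R 4.3.3; lmFit, eBayes, no covariates), with Benjamini-Hochberg adjustment over all genes tested and a threshold of 0.05. Pairs of members and single members were tested by exact permutation of arrays in Python 3.11.15, and figures were drawn with matplotlib 3.10.9. Promoters came from a RefSeq table.

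Members and gene lists were chosen with earlier results of these data known. Named genes were all members, Rarb, in each list the called genes and up to 6 with the smallest p, and the 10 genes nearest to the member mean. Btg2, Npas4, Ccn1, Vgf, Srf and Elk1 were named after their values were seen. The fit was tested on simulated data. Alternatives were other filters, scalings, variance models and probe set rules, marker covariates, a replicate block and leaving out each array.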

Additional observations from a re-analysis of the deposited data

Results flagged for a closer look

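Of 20 groups formed by 10 members and 2 genotypes, 2 held an array farther from the rest than Dixon's 95% limit, where chance gives about 1 in 20. Nr4a1 measured 10.12 in Rarb-null replicate 1, against 9.84 to 9.91 in the other null arrays. Egr2 measured 6.89 in WT replicate 6, against 7.09 to 7.16 in the other WT arrays. Of these, replicates 1, 2 and 4 read the same 7.0894, which narrows the range.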

How the results depend on the processing

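Egr3 stayed past the threshold in 22 of 23 alternatives (differences of 0.15 to 0.26), Fosb in 19 of 22, Egr1 in 15 of 23 and Jun in 9 of 23, and none of these 4 changed sign. Members called higher numbered 1 with the filter at the 60th percentile (which removes Fosb) or with the cortical covariate, 0 with the oligodendrocyte covariate, and 1 to 2 with single arrays left out. Members called lower numbered 1 without a filter, after quantile normalisation, after cyclic loess or with the cortical covariate, 0 with arrays centred or with the oligodendrocyte covariate, and 0 to 2 with single arrays left out.

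Genes called higher (905) and lower (1436) numbered 510 higher with the filter at the 60th percentile, 1677 higher and 939 lower with arrays centred, 335 and 757 with the cortical covariate, 240 and 570 with the oligodendrocyte covariate, and 525 and 950 without replicate 5 of both genotypes, a setting added after seeing the data. With single arrays left out they ran from 584 to 1010 higher and from 963 to 1566 lower. Over the 4 activity lists together (83 genes tested), 9 were called higher and 14 lower, where 7.56% and 12% of all tested genes were. The rises numbered 16 with arrays centred, 14 after quantile normalisation, cyclic loess or with the replicate block, 4 with the cortical and 5 with the oligodendrocyte covariate, and 7 to 10 with single arrays left out. Of the 23 calls, 10 were lost with the cortical covariate (among them Mef2c, itself part of it), 10 with the oligodendrocyte covariate and 4 with both. The falls numbered 8 with the oligodendrocyte covariate and 11 to 15 with single arrays left out. The number of member pairs with a passing correlation, 11, became 7 with arrays centred, after quantile normalisation or cyclic loess, 0 in WT arrays alone (too few to show a loss, since the median r there was 0.72), 2 without replicate 5 of both genotypes, and 6 to 14 with single arrays left out.

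Differences near 0 changed sign: Nr4a1 with arrays centred (0.039), quantile normalisation (0.031), cyclic loess (0.029) and without replicate 5 of both genotypes (0.037), and Junb with quantile normalisation (-0.0014), cyclic loess (-0.0064), array weights (-0.022), the replicate block (-0.029) and the cortical covariate (-0.10). So did Egr2 with quantile normalisation (-0.018), cyclic loess (-0.020), the replicate block (-0.0053) and the cortical covariate (-0.036), and Egr4 with that covariate (-0.068). The difference of Nr4a2 was not near 0 in the main fit (0.66), yet it was -0.14 with the cortical covariate. With single arrays left out, Nr4a1 ran from -0.051 to 0.042, Junb from -0.035 to 0.051 and Egr2 from -0.0053 to 0.063. The causes were not tested.

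The main fit did not use the replicate numbers shared by the genotypes. Same-numbered arrays correlated by 0.056 to 0.43 in their deviations, always positively, and 2 of 5 null arrays correlated best with their own number. Whether the numbers mark a pairing was not tested further. The replicate block narrowed the SE of Jun (0.050 against 0.093) and Arc (0.056 against 0.099), while that of Nr4a1 was wider (0.088 against 0.084). With the replicate block, in which WT replicate 6 has no partner and does not bear on the difference, 2 members were called higher and 3 lower, Arc being added (-0.20, adjusted p = 0.0297).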
